A study of Homo sapiens with 11 samples.

Results

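The BCL2 family genes BBC3, PMAIP1, BCL2L11, BID, BAX, BAK1, MCL1, BCL2 and BCL2L1, together with the death receptor gene TNFRSF10B, were read in an RNA sequencing table of HEK293T cells. The 10 genes were taken by name from a table of 38021 genes, and all 10 passed the filter on low counts that left 17793 genes for testing. HEK293T is an established, wild-type human embryonic kidney line that carries a viral large T antigen. All cells were treated for 6 h. The control group received 0.1% DMSO (vehicle). The other groups received thapsigargin (Tg) at 500 nM, AA147 at 10 µM, or AA132 at 0.1, 0.3, 1, 3, 6, 10, 15 or 30 µM. Thapsigargin, which inhibits the pump that refills the endoplasmic reticulum with calcium, is a standard stress inducer, and AA147 and AA132 are small molecules known as activators of unfolded protein response signalling. Each of the 11 conditions had 3 numbered libraries, 33 in all. The labels list 1 sample per condition and do not say whether the numbered libraries came from separate cultures, so the p-values measure only the spread between these libraries.

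Proteins of the BCL2 family decide whether the outer mitochondrial membrane is permeabilised during intrinsic apoptosis. BAX and BAK1 form the pores, BCL2, BCL2L1 (BCL-XL) and MCL1 hold them in check, and the BH3-only proteins PUMA (BBC3), NOXA (PMAIP1), BIM (BCL2L11) and BID bind the guardians or the pore formers. TNFRSF10B encodes DR5, a cell surface receptor for TRAIL that starts the extrinsic route through caspase-8. In cells under lasting endoplasmic reticulum stress, BBC3, PMAIP1, BCL2L11 and TNFRSF10B are known targets of the ATF4 and CHOP (DDIT3) branch. The counts were per gene, so the splice forms of BCL2L1, MCL1, BCL2L11 and BID were not separated, and all values are transcript levels.

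Library totals ran from 32.3 M to 38.0 M counts, and since the samples are bulk RNA, fewer cells with a transcript and less of it per cell cannot be told apart. Levels are given in CPM, the counts of a gene per 1 M counts of the library, scaled by the TMM factors of edgeR, which stayed between 0.968 and 1.03. Immune marker genes summed to at most 0.220 CPM in any library, and of 4 endothelial and 4 fibroblast genes only KDR and COL1A1 averaged above 1 CPM. The endothelial genes summed to 1.05 to 3.49 CPM and the fibroblast genes to 19.9 to 51.1 CPM. Neural genes reported in HEK293 lines summed to 160 to 199 CPM and epithelial genes to 1031 to 1530 CPM. Of 5 kidney developmental genes, PAX2 averaged under 1 CPM. Vehicle library 1 stood apart from the other 2 vehicle libraries. Its root mean square deviation from its group over all genes was 0.354 on the log2 scale, the highest of the 33, and its median absolute deviation over the 10 genes was 0.186. It held the highest BBC3, BAX, BAK1 and BCL2L1 and the lowest PMAIP1, BCL2L11, MCL1, BCL2 and TNFRSF10B of the vehicle group. Every comparison with vehicle shares these 3 control libraries.

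The pore former BAX was the most abundant of the 10 transcripts per length and BCL2 the least. Divided by the length of the canonical transcript, vehicle levels were 163 ± 30.5 CPM per kilobase for BAX (SD, n = 3), 35.1 ± 0.952 for TNFRSF10B, 32.6 ± 6.04 for PMAIP1 and 30.9 ± 2.18 for MCL1. BID, BAK1, BCL2L1 and BCL2L11 lay between 10.3 and 15.0 CPM per kilobase. BBC3 stood at 4.83 ± 1.18 and BCL2 at 1.03 ± 0.164. The order of TNFRSF10B, PMAIP1 and MCL1 lay within their spread. With the summed length of all annotated exons in place of the canonical transcript, BAX stayed first in vehicle at 50.01 ± 9.38, and under Tg PMAIP1, TNFRSF10B and BAX lay within their spread of each other at 42.0 ± 0.717, 40.7 ± 1.24 and 40.2 ± 2.61.

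**Figure D1:**
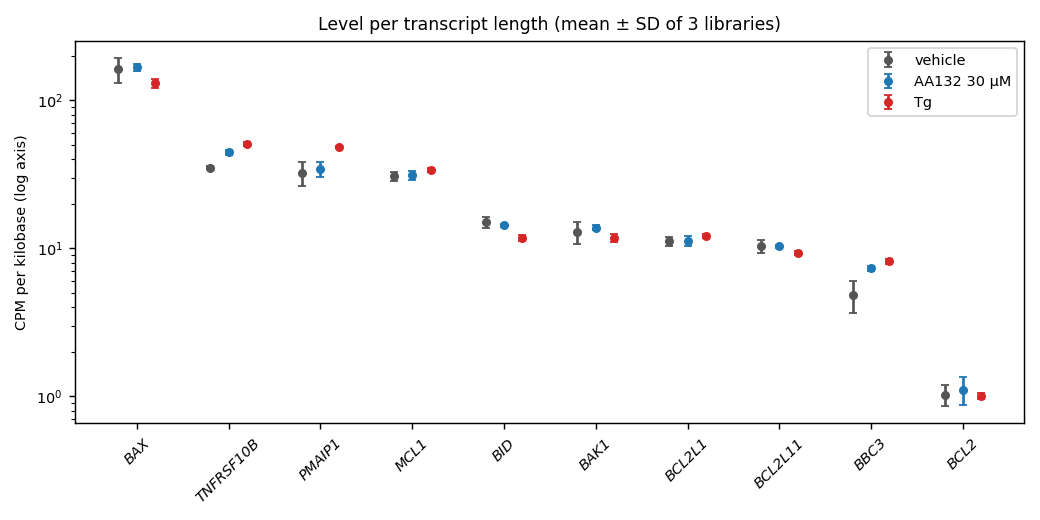
Levels of the 10 transcripts in CPM per kilobase of canonical transcript (log axis), as means ± SD of 3 libraries, in vehicle (grey), AA132 30 µM (blue) and Tg (red). BAX lies highest at 163 in vehicle and BCL2 lowest at 1.03, and the Tg points lie above vehicle for BBC3, PMAIP1 and TNFRSF10B and below it for BID and BAX.

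Tg changed 5 of the 10 transcripts. BBC3, PMAIP1 and TNFRSF10B rose, BID and BAX fell, and BCL2L11, BAK1, MCL1, BCL2 and BCL2L1 did not pass the test. A gene counts as called where edgeR's quasi-likelihood test gave an adjusted p under 0.05 after Benjamini-Hochberg adjustment over all genes tested. The background under Tg was 31.2% of all genes called. The median absolute log2 fold change was 0.24 over the 10 genes and 0.24 over all genes tested, so the typical member moved about as far as the typical gene.

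In the main edgeR fit, AA132 raised TNFRSF10B from 6 µM on and BBC3 at 10 and 30 µM. It moved no other member past the threshold against vehicle. At 6 µM 1 of the 10 genes was called, where 1.07% of all genes were called. At 10 µM the count was 2 against a background of 1.41%, at 15 µM it was 1 against 2.76%, and at 30 µM it was 2 against 7.05%. The median absolute log2 fold change over the 10 genes was 0.20 at 6 µM and 0.14 at 10 µM, above the 0.12 over all genes tested at each of these doses. It was 0.074 at 15 µM and 0.073 at 30 µM, below the 0.14 and 0.15 over all genes. The counts over all genes at these 4 doses moved by over 1.5 times when 1 library was left out, from 190 to between 95 and 506 at 6 µM and from 1255 to between 700 and 2017 at 30 µM, the higher value without vehicle library 1 in both cases. A fit on the 6 libraries of each comparison alone, without the other conditions to estimate the spread, called 0 members at each of these 4 doses.

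At 3 µM none of the 10 genes was called against a background of 0.118%, with 2 of them under an unadjusted p of 0.05 and 0 called by DESeq2. At 0.1, 0.3 and 1 µM none was called and the background was 0% at each dose. The unadjusted p was under 0.05 for 0, 1 and 1 of the 10 at these doses, and DESeq2 called 0 at each. AA147 called none of the 10 by edgeR against a background of 0.0225%, with 1 gene, TNFRSF10B, under an unadjusted p of 0.05 and 0 called by DESeq2.

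**Figure D2:**
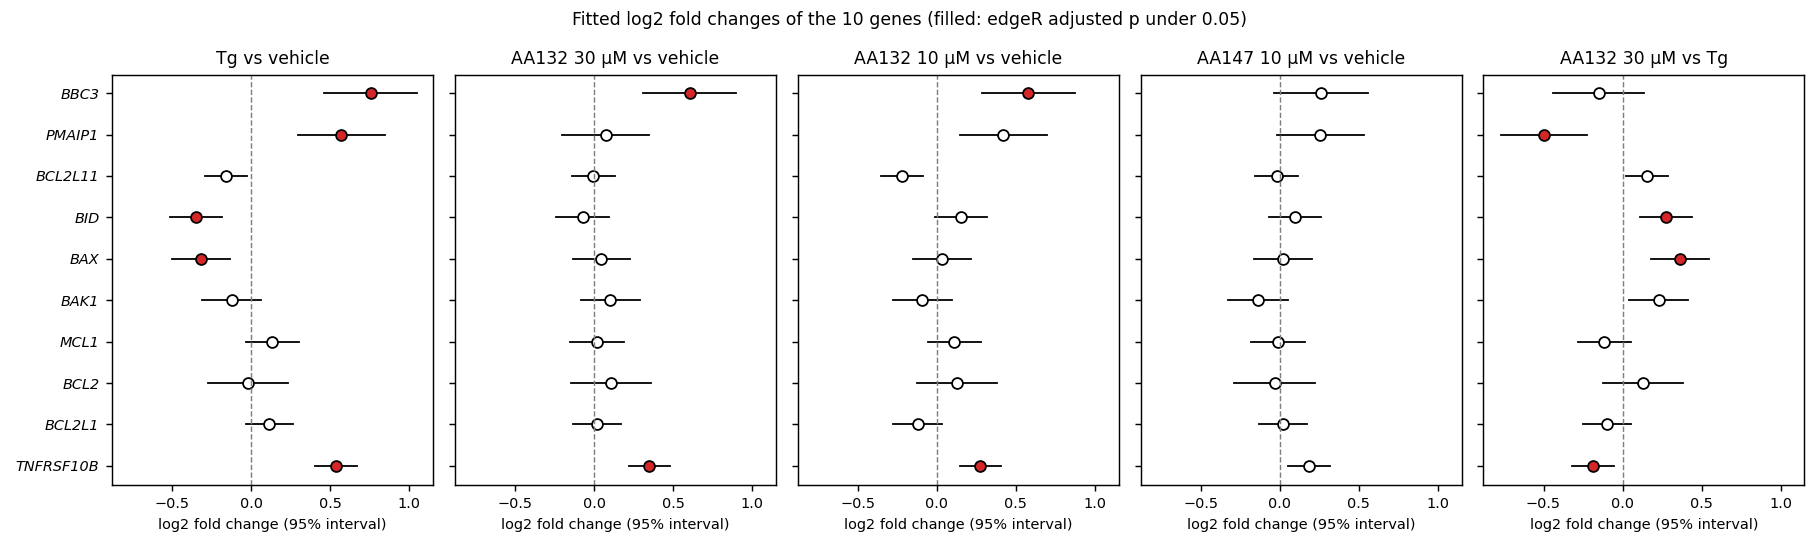
Fitted log2 fold changes of the 10 transcripts (points) with 95% intervals (lines) in 5 comparisons, filled where the edgeR adjusted p was under 0.05. Filled points number 5 for Tg, 2 each for AA132 at 30 and 10 µM, 0 for AA147 and 4 for AA132 30 µM against Tg.

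Across the 8 AA132 doses alone, with no use of the vehicle libraries, BBC3 and TNFRSF10B rose with dose and BCL2L11 fell. The slope was the log2 change per 10-fold of dose over 24 libraries, and 18.7% of the 17554 genes tested were called. BBC3 had the steepest slope of the 10, at 0.28 (SE 0.040, adjusted p = 4.87e-06), followed by TNFRSF10B at 0.15 (SE 0.020, adjusted p = 2.73e-06) and BCL2L11 at -0.10 (SE 0.027, adjusted p = 0.00560). BAX missed the threshold with a slope of 0.056 (SE 0.021, adjusted p = 0.0553). The median absolute slope was 0.056 over the 10 genes and 0.054 over all genes tested. Without the 30 µM dose, PMAIP1 (adjusted p = 0.0135) and BCL2L1 (slope -0.08, adjusted p = 0.0213) were called as well, and leaving out only library 3 of that dose also called both (adjusted p = 0.0403 and 0.0210). BAX was called in 7 of the alternatives.

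**Figure D3:**
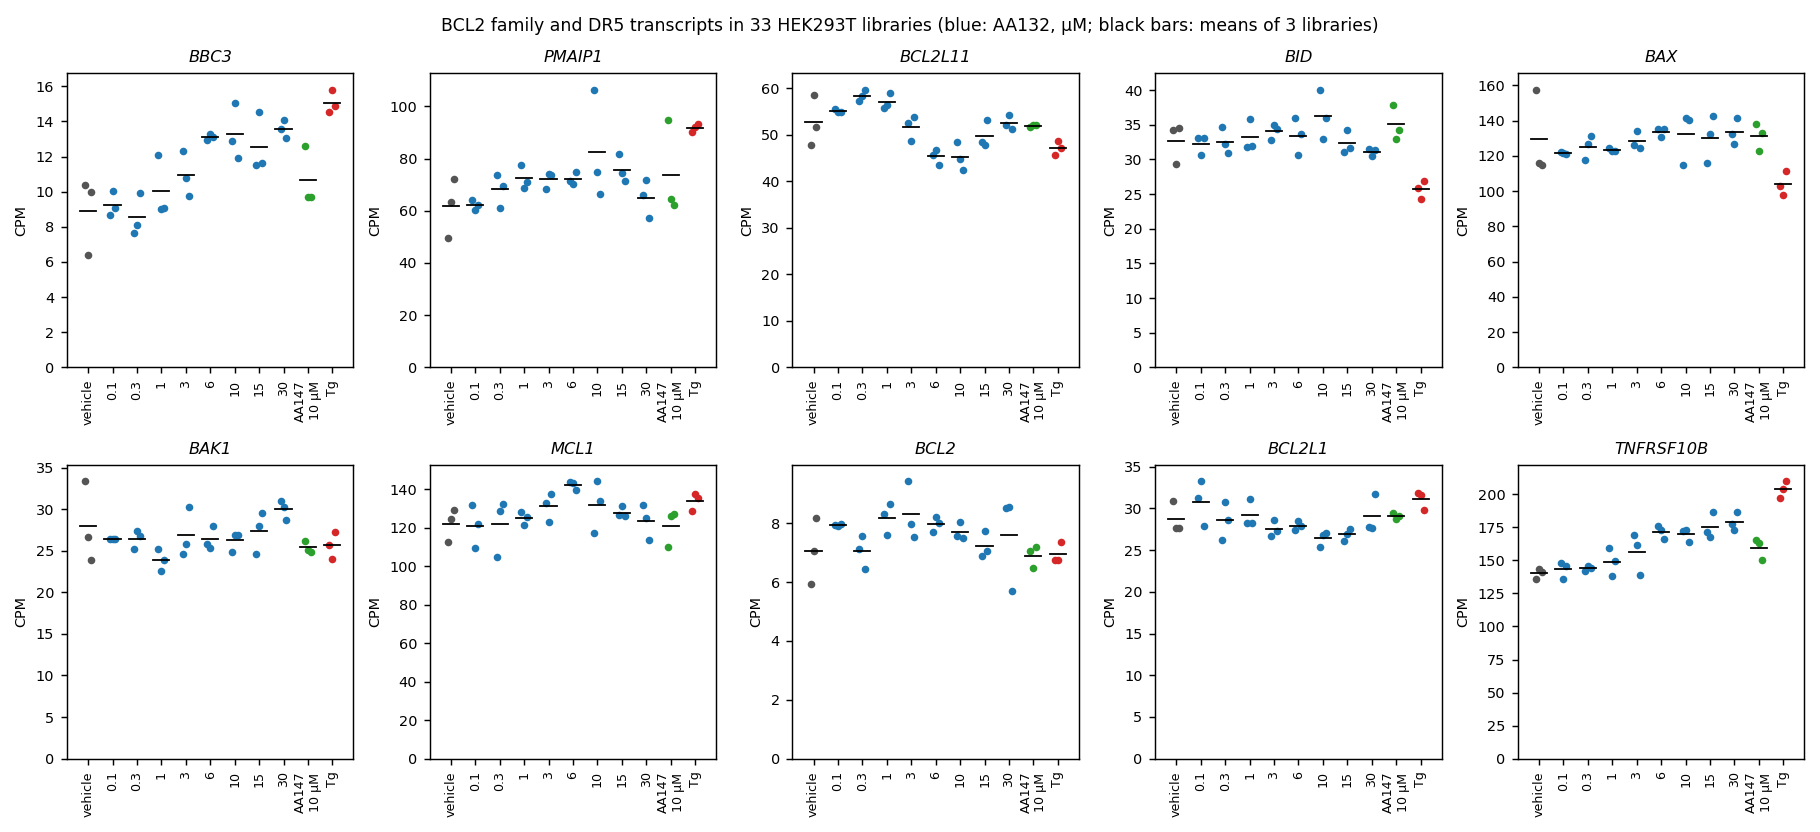
CPM of each of the 10 transcripts in all 33 libraries (points), with black bars at the means of 3 libraries, for vehicle (grey), AA132 by dose in µM (blue), AA147 (green) and Tg (red). BBC3 and TNFRSF10B lie above all vehicle libraries at 6 to 30 µM AA132 and under Tg, and BID and BAX lie below all vehicle libraries under Tg.

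Promoter windows of 3 genes called under Tg are shown because these genes moved in different directions, BBC3 and PMAIP1 up and BAX down. They are the 250 bases before the transcription start of the RefSeq table (GRCh38.p14), which held windows for 8 of the 10 genes. Capitals mark the motif matches found. BBC3 lies at chr19:47220822-47232766 on the minus strand (GENCODE, GRCh38) with 4 exons in its canonical transcript, PMAIP1 at chr18:59899996-59904305 on the plus strand with 2, and BAX at chr19:48954815-48961798 on the plus strand with 6. The windows below cover chr19:47232668-47232917 (minus strand), chr18:59899746-59899995 (plus strand) and chr19:48954625-48954874 (plus strand).
BBC3: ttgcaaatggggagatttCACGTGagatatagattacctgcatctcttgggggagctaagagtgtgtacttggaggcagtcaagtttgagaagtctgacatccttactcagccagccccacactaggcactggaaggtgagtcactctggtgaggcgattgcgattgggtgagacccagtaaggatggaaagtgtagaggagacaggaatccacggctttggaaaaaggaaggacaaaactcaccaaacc
PMAIP1: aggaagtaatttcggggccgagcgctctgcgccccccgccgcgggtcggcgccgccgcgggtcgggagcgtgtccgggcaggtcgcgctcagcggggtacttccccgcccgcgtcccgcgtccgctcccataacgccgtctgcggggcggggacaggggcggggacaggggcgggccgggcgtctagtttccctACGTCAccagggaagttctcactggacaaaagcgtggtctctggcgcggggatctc
BAX: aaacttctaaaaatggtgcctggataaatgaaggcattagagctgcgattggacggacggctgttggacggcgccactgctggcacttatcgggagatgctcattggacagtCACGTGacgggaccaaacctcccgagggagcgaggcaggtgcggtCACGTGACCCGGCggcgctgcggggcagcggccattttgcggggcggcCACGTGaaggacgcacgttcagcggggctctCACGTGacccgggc

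These windows were searched on both strands for a C/EBP-ATF composite (TGATGNAAN), the ATF/CREB core (TGACGT), an antioxidant response element core (TGACNNNGC), an E-box (CACGTG) and the endoplasmic reticulum stress response element. The PMAIP1 window held 1 ATF/CREB core, read on the other strand, 56 to 51 bases before the start. The BBC3 window held 1 E-box, 232 to 227 bases before the start. The BAX window held 4 E-boxes, the nearest 14 to 9 bases before the start, and 1 antioxidant response element core that overlaps the E-box at 93 to 88. Of 35116 windows of 1 length in the table (250 bases before to 50 after the start), 7.98% held the ATF/CREB core, 7.26% the E-box and 13.3% the antioxidant response element core. The composite was in 3.61% and the stress response element in 0.0769% of windows, and neither lay in the windows shown. The RefSeq starts used for BBC3 and BAX lie inside the GENCODE bounds given above. The bases nearest those starts, with the BAX E-box at 14 to 9, thus lie within the GENCODE genes. Start sites other than those of the table were not searched, and a match is only a description of the letters.

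BBC3 encodes PUMA, a BH3-only protein that binds all the pro-survival members. It was a low transcript, at 236 to 579 counts per library. The vehicle libraries held 10.4, 6.403 and 9.99 CPM, and the Tg libraries 14.6, 15.8 and 14.9. The Tg libraries lay above every other library of the study except library 2 at 10 µM AA132, at 15.1 CPM. The fitted log2 fold change under Tg was 0.76 (SE 0.14, 95% interval 0.46 to 1.05, adjusted p = 0.000102).

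Under AA132 the BBC3 level lay near vehicle at low doses and was higher, at similar levels, from 6 µM on. The libraries held 8.67, 10.1 and 9.05 CPM at 0.1 µM, and 12.9, 13.3 and 13.1 at 6 µM. They held 12.9, 15.1 and 11.9 CPM at 10 µM, 11.5, 14.5 and 11.6 at 15 µM and 13.6, 14.1 and 13.04 at 30 µM. No library from 6 to 30 µM overlapped the vehicle range. BBC3 had a log2 fold change of 0.55 with 6 µM (adjusted p = 0.0511) and 0.58 with 10 µM (adjusted p = 0.0321). It was 0.49 with 15 µM (adjusted p = 0.0570) and 0.60 with 30 µM (adjusted p = 0.00782), and each SE was 0.14. These 4 values differ by less than 1 SE, and differences between doses were not tested beyond the slope. BBC3 was called at 6 µM in 11 of the alternatives and at 15 µM in 5. DESeq2 was among them at both doses (adjusted p = 0.0159 and 0.0281). Vehicle library 2, the lowest library of the study for BBC3, bears on the calls at 10 and 30 µM. Without it the log2 fold change was 0.38 at 10 µM (adjusted p = 0.153) and 0.41 at 30 µM (adjusted p = 0.0694). The call at 10 µM was also lost without AA132 10 µM library 1 (adjusted p = 0.0503) or library 2 (adjusted p = 0.152). The dose slope, which uses no vehicle library, kept its call when any 1 library was left out.

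PMAIP1 encodes NOXA, a BH3-only protein that chiefly binds MCL1. It rose under Tg and did not pass the test under AA132 or AA147. Vehicle libraries held 49.6, 63.5 and 72.4 CPM, a wide spread, and Tg libraries held 90.1, 92.3 and 93.2, all above the vehicle range. The log2 fold change under Tg was 0.57 (SE 0.14, 95% interval 0.30 to 0.85, adjusted p = 0.00127).

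At 10 µM AA132 the PMAIP1 libraries held 106, 75.0 and 66.4 CPM, and under AA147 they held 94.7, 64.7 and 62.2. Library 1 lay well above the vehicle range in both groups. Of the others, only AA132 library 2 lay above that range, and narrowly. The same AA132 and AA147 libraries were also the highest of their groups for DDIT3, at 23.4 and 18.3 CPM. Both also stood apart over all genes. Their root mean square deviations, 0.317 and 0.287 on the log2 scale, were the highest of their groups. Whether this wider deviation bears on the PMAIP1 and DDIT3 values was not tested. PMAIP1 at 10 µM AA132 was at 0.42 on the log2 scale (SE 0.14, adjusted p = 0.126), and without library 1 of that dose it was at 0.19 and again not called. Under AA147 it was 0.26 (SE 0.14, adjusted p = 0.761). At 30 µM the libraries held 66.0, 71.9 and 57.3 CPM, within the vehicle range, and the log2 fold change was 0.073 (95% interval -0.20 to 0.35). Without the filter on low counts PMAIP1 was called at 10 µM (adjusted p = 0.000133) and at 15 µM (adjusted p = 0.0250).

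BCL2L11 encodes BIM, which binds both the pro-survival members and the pore formers. Its lower level at middle AA132 doses did not pass edgeR's test against vehicle. Vehicle libraries held 47.8, 58.5 and 51.8 CPM. The AA132 libraries held 57.2, 58.4 and 59.7 CPM at 0.3 µM, 45.8, 46.8 and 43.6 at 6 µM, and 48.4, 44.8 and 42.5 at 10 µM. At 30 µM they were back at 52.0, 54.3 and 51.4 CPM. The mean was thus lower at 6 µM than at 1 µM and higher again at 30 µM. A straight slope on dose does not describe this order of the means, and differences between doses were not tested beyond the slope. Against vehicle the log2 fold change was -0.22 at 6 µM (SE 0.066, adjusted p = 0.117), -0.22 at 10 µM (SE 0.066, adjusted p = 0.0917) and -0.0037 at 30 µM (SE 0.066, adjusted p = 0.984). Without vehicle library 1, the lowest of its group, BCL2L11 was called at 6 µM (adjusted p = 0.0133) and at 10 µM (adjusted p = 0.00962). DESeq2 called it at both doses (adjusted p = 0.0359 and 0.0260) and under Tg (adjusted p = 0.0355). Tg libraries held 45.7, 48.7 and 47.3 CPM, a log2 fold change of -0.16 (SE 0.066, adjusted p = 0.0654) that also passed without that library (adjusted p = 0.00638). BCL2L11 lies at chr2:111119378-111168444. Its RefSeq window lies inside these GENCODE bounds and held none of these 5 motifs.

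BID, which caspase-8 cleaves to link death receptors to mitochondria, fell under Tg and stayed near vehicle in the other conditions. Vehicle libraries held 34.2, 29.4 and 34.6 CPM and Tg libraries 25.9, 24.3 and 26.9. The Tg libraries were the 3 lowest of the 33. BID fell with a log2 fold change of -0.35 (SE 0.082, 95% interval -0.51 to -0.18, adjusted p = 0.00113). Over the 8 AA132 doses and AA147 the log2 fold changes were smaller than this one, and none was called. The gene lies at chr22:17734138-17774770 on the minus strand.

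BAX, one of the pore formers, also fell under Tg, but the call rested on 1 vehicle library. Vehicle libraries held 157, 116 and 115 CPM and Tg libraries 103, 97.7 and 111. All Tg libraries lay below all vehicle libraries. In the fit BAX fell with a log2 fold change of -0.32 (SE 0.090, 95% interval -0.50 to -0.13, adjusted p = 0.00674). Without vehicle library 1 it was -0.16 (adjusted p = 0.135), and with only the vehicle and Tg libraries in the fit the adjusted p was 0.125. The 24 AA132 libraries held 115 to 142 CPM, and no dose was called.

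BAK1, the other pore former (chr6:33572547-33580293), was not called in any comparison, although its difference between 30 µM AA132 and Tg (0.23, adjusted p = 0.0607) passed in 10 of the alternatives. Its libraries ran from 22.6 to 33.4 CPM, with the highest value in vehicle library 1. The vehicle group held 33.4, 26.7 and 23.9 CPM and the 30 µM group 31.1, 30.3 and 28.7. BAK1 had a log2 fold change of 0.10 at 30 µM AA132 (95% interval -0.084 to 0.29) and -0.12 under Tg (95% interval -0.31 to 0.064).

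The pro-survival genes MCL1, BCL2 and BCL2L1 were not called in any comparison with vehicle. Of the 10 transcripts, MCL1 and BCL2L1 spanned the least between the lowest and highest condition mean, each 0.24 on the log2 scale, against 0.82 for BBC3. MCL1, a short-lived guardian that NOXA targets (chr1:150560895-150579738), held 112, 124 and 129 CPM in vehicle, 129, 138 and 135 under Tg and 131.7, 125 and 114 at 30 µM AA132. Its highest mean was at 6 µM, with 144, 143 and 139.5 CPM, all above the vehicle range (log2 fold change 0.22, SE 0.082, adjusted p = 0.236). The log2 fold change under Tg was 0.13 (95% interval -0.034 to 0.30).

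BCL2, the founding guardian of the family (chr18:63123346-63320128), was the lowest transcript. Its libraries held 206 to 361 counts. Levels were 5.93, 7.05 and 8.19 CPM in vehicle, 6.76, 6.77 and 7.35 under Tg and 8.52, 8.55 and 5.71 at 30 µM AA132, which overlap. Its log2 fold change was -0.021 under Tg (95% interval -0.28 to 0.23) and 0.11 at 30 µM (95% interval -0.15 to 0.36).

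BCL2L1, which encodes BCL-XL (chr20:31664452-31723989), held 30.8, 27.7 and 27.7 CPM in vehicle. Tg libraries held 31.9, 31.6 and 29.9 CPM, and AA132 libraries at 10 µM held 25.3, 26.8 and 27.1, just below the vehicle range. Fitted log2 fold changes were 0.12 under Tg (95% interval -0.036 to 0.27) and -0.12 at 10 µM (95% interval -0.27 to 0.030). For these 3 genes, changes within the intervals given were not excluded with 3 libraries a condition.

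TNFRSF10B, at chr8:23020133-23069031 on the minus strand with 9 exons in its canonical transcript, had the smallest p of the 10 under Tg. Vehicle libraries held 136, 143 and 142 CPM and Tg libraries 198, 204 and 210.0. The Tg libraries were the 3 highest of the 33. The log2 fold change under Tg was 0.54 (SE 0.065, 95% interval 0.41 to 0.67, adjusted p = 5.00e-08), which ranked it 564 among 17793 genes by p.

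Under AA132 the TNFRSF10B mean was higher at each dose than at the dose before it, apart from 10 µM. The 0.1, 0.3 and 1 µM groups averaged 143 ± 6.69, 144 ± 1.83 and 149 ± 10.8 CPM (SD, n = 3). The 3 µM group averaged 157 ± 16.0 and the 6 µM group 172 ± 4.80. The 3 highest doses averaged 169.8 ± 5.35, 175 ± 10.2 and 179 ± 6.81 CPM. Neighbouring doses overlapped. From 6 µM on, every library lay above every vehicle library. TNFRSF10B rose by 0.29 on the log2 scale at 6 µM (adjusted p = 0.0136) and by 0.28 at 10 µM (adjusted p = 0.0193). The rise was 0.32 at 15 µM (adjusted p = 0.00265) and 0.35 at 30 µM (adjusted p = 0.000684), and each SE was 0.065. The call at 6 µM was lost without library 1 (adjusted p = 0.0938) or library 2 (adjusted p = 0.0615) of that dose, and the call at 10 µM without library 1 (adjusted p = 0.0632) or library 2 (adjusted p = 0.0796). The calls at 15 and 30 µM held when any 1 library was left out.

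AA147 and AA132 could be compared at 1 matched dose, 10 µM, and none of the 10 transcripts differed past the threshold. By edgeR 0.0674% of all genes were called there. Of the 10, BBC3 and BCL2L11 had an unadjusted p under 0.05, and DESeq2 called 0. TNFRSF10B libraries held 165, 163 and 151 CPM under AA147 and 172, 173 and 164 under AA132, so the groups overlapped. The difference, AA132 minus AA147, was 0.090 on the log2 scale (95% interval -0.042 to 0.22, adjusted p = 0.771). AA147 libraries all lay above the vehicle range for TNFRSF10B, with a log2 fold change of 0.19 (SE 0.065, adjusted p = 0.541). For BBC3, AA147 libraries held 12.6, 9.68 and 9.72 CPM, and the difference was 0.32 (95% interval 0.027 to 0.61, adjusted p = 0.549). BCL2L11 held 51.7, 52.05 and 52.2 CPM under AA147, and the difference was -0.20 (95% interval -0.34 to -0.065, adjusted p = 0.367). The intervals leave room for differences of that size, so the compounds are not shown to act alike on these genes.

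Between AA132 at 30 µM and Tg, the direct test called 4 of the 10 genes, where 29.8% of all genes were called. PMAIP1 was lower under AA132 by a log2 difference of -0.50 (SE 0.13, adjusted p = 0.00477) and TNFRSF10B by -0.19 (SE 0.065, adjusted p = 0.0260). BAX was higher by 0.36 (SE 0.090, adjusted p = 0.00218) and BID by 0.28 (SE 0.082, adjusted p = 0.00970). BBC3 did not differ past the threshold, at -0.15 (95% interval -0.44 to 0.14), although the libraries of the groups did not overlap. The differences of PMAIP1 and BAX kept their calls in the alternatives tried. That of BID was lost without Tg library 2 (adjusted p = 0.0575). That of TNFRSF10B was lost without any 1 of the 3 Tg libraries (adjusted p = 0.0516, 0.0622 and 0.143), without library 1 or 2 at 30 µM (adjusted p = 0.0723 and 0.103), and with upper-quartile scaling (adjusted p = 0.0891). Agents and doses differ between these groups.

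Some other BCL2 family transcripts changed under Tg. At 30 µM AA132 edgeR called 0 of the 10 tested, with 3 under an unadjusted p of 0.05, and DESeq2 called 1, BMF. HRK, a neuronal BH3-only gene, held 3.07, 4.18 and 3.66 CPM in vehicle and 6.84, 6.79 and 6.48 under Tg, with no overlap between the groups. It rose under Tg by 0.88 on the log2 scale (SE 0.15, adjusted p = 3.27e-05). BNIP3L, a mitophagy receptor with a BH3-like part, was called at 0.25, a call lost without vehicle library 1 (adjusted p = 0.149) or Tg library 3 (adjusted p = 0.108). Thus 2 of 6 other BH3-only genes were higher and 0 lower, a share near the 31.2% of all genes called under Tg. Of the other pro-survival genes only BCL2L2 (BCL-W) was tested, and it rose by 0.47 (SE 0.12, adjusted p = 0.00233). Of 3 further multidomain genes, BCL2L13 rose by 0.35 (SE 0.063, adjusted p = 4.05e-05) and BCL2L12 fell with a log2 fold change of -0.32 (SE 0.098, adjusted p = 0.0108), a call lost without Tg library 3 (adjusted p = 0.0724). The direct test found HRK (-0.65, adjusted p = 0.00122), BCL2L13 (-0.25, adjusted p = 0.00276) and BCL2L2 (-0.36, adjusted p = 0.0197) lower under AA132 at 30 µM than under Tg. The call of BCL2L2 was lost without library 2 at 30 µM (adjusted p = 0.0772) or Tg library 3 (adjusted p = 0.142). BIK, a BH3-only gene named here after its values were seen, was called higher under AA132, a call lost in 7 of the alternatives. In this comparison 29.8% of all genes were called.

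Several death receptor genes rose under AA132, and TNFRSF10D, TNFRSF10A and FAS were higher there than under Tg by direct test. Of 11 tested genes of the pathway besides TNFRSF10B, 4 rose at 30 µM AA132 and 0 fell, where 7.05% of all genes were called. Under Tg 1 was higher and 1 lower, a smaller share than the 31.2% over all genes. TNFRSF10D, a decoy receptor for TRAIL, held 32.6, 37.9 and 43.4 CPM in vehicle, 62.7, 65.3 and 56.9 at 30 µM AA132 and 30.0, 30.5 and 28.7 under Tg. Its log2 fold change was 0.70 under AA132 (SE 0.100, adjusted p = 1.80e-05) and -0.35 under Tg (SE 0.10, adjusted p = 0.00749), and the direct difference was 1.05 (SE 0.10, adjusted p = 6.13e-10). The call under Tg was lost without vehicle library 3 (adjusted p = 0.0853).

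TNFRSF10A, which encodes DR4, the other TRAIL receptor with a death domain, held 14.2, 13.7 and 14.2 CPM in vehicle and 17.7, 20.4 and 19.4 at 30 µM AA132. It rose by 0.45 (SE 0.11, adjusted p = 0.01), a call lost without library 2 at 30 µM (adjusted p = 0.0601). Under Tg it held 15.1, 12.3 and 13.6 CPM, around the vehicle values (-0.037, SE 0.11, adjusted p = 0.845). FAS, the receptor for FAS ligand, rose by 0.43 at 30 µM (SE 0.092, adjusted p = 0.00299), and TNFRSF1A, the tumour necrosis factor receptor, by 0.31 (SE 0.069, adjusted p = 0.00463). FAS under Tg was at 0.15 (SE 0.093, adjusted p = 0.241). TNFRSF1A under Tg was called at 0.22 (SE 0.069, adjusted p = 0.0117), a call lost without vehicle library 2 (adjusted p = 0.0526), vehicle library 3 (adjusted p = 0.0728) or Tg library 3 (adjusted p = 0.0819). The direct difference, AA132 at 30 µM minus Tg, was 0.49 for TNFRSF10A (adjusted p = 0.000906) and 0.28 for FAS (adjusted p = 0.0178). That of FAS was lost without library 2 at 30 µM (adjusted p = 0.0535), Tg library 1 (adjusted p = 0.120) or Tg library 3 (adjusted p = 0.0546). Of the 3 TRAIL receptor genes described here, TNFRSF10B was called higher under both agents, and TNFRSF10A and TNFRSF10D were higher under AA132 than under Tg by direct test. The median log2 fold change of the 11 genes at 30 µM was 0.11, against -0.0013 over all genes tested. With dose, 5 of the 11 rose and 0 fell (18.7% of all genes were called), the steepest being TNFRSF10D at 0.28 per 10-fold of dose (adjusted p = 8.57e-09) and FAS at 0.23 (adjusted p = 4.68e-07). With only the vehicle and 30 µM libraries in the fit, the 4 calls at 30 µM were lost (adjusted p = 0.0522 for TNFRSF10D, 0.136 for TNFRSF10A, 0.156 for FAS and 0.228 for TNFRSF1A). The ligand genes TNFSF10 and FASLG were under the filter.

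**Figure D4:**
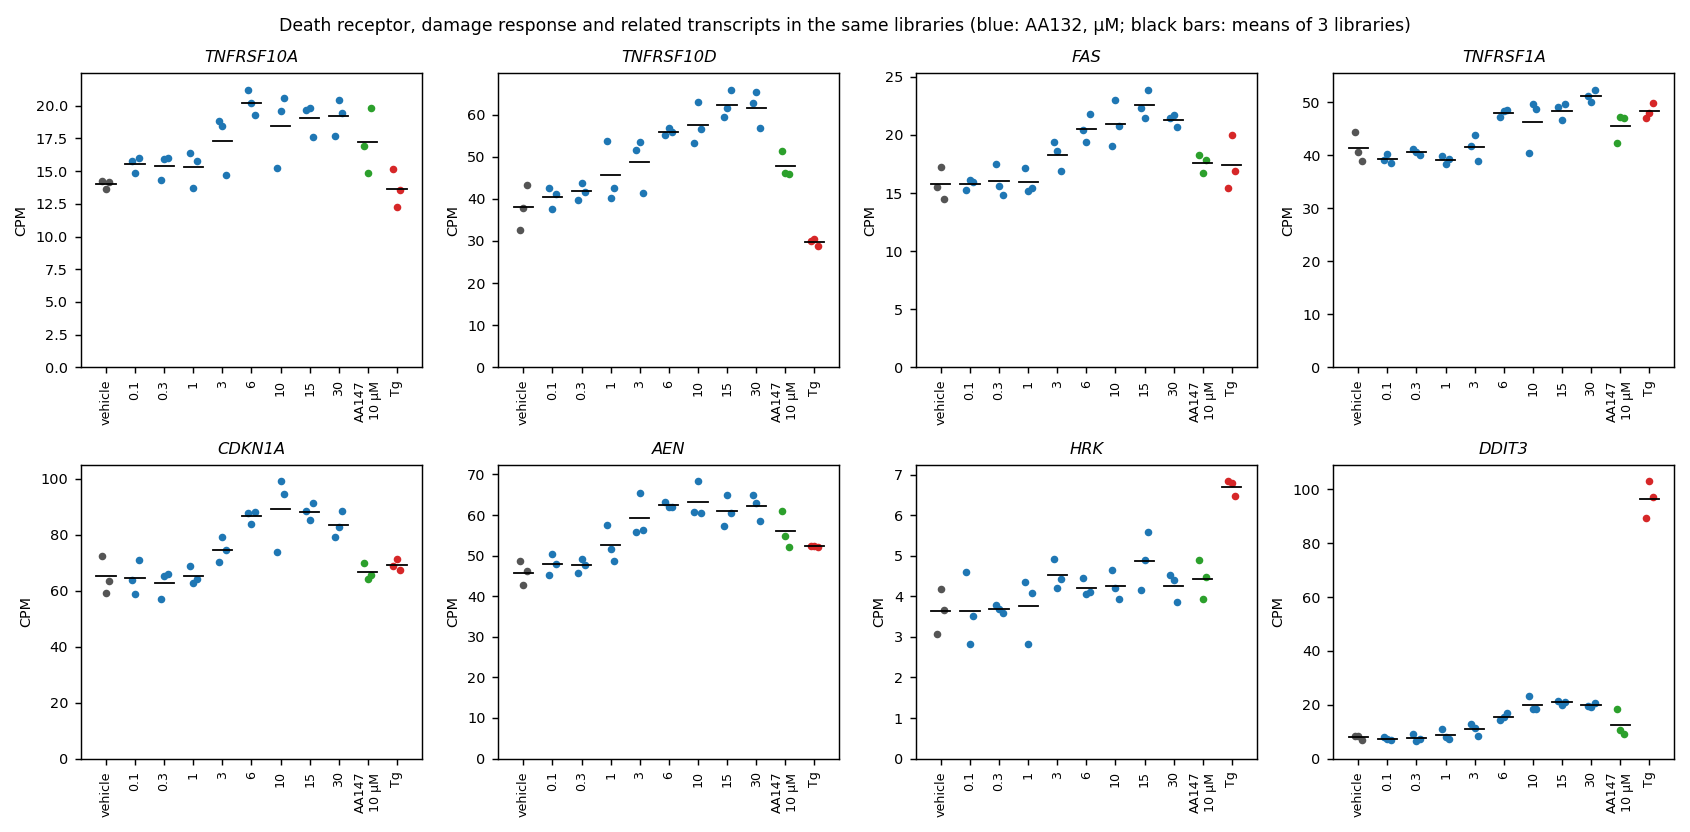
CPM in all 33 libraries (points), with black bars at the means of 3 libraries, of 4 death receptor genes, CDKN1A, AEN, HRK and DDIT3, for vehicle (grey), AA132 by dose in µM (blue), AA147 (green) and Tg (red). TNFRSF10D lies between 56.9 and 65.3 CPM at 30 µM AA132 and at most 30.5 under Tg, while DDIT3 lies between 19.03 and 20.8 CPM at 30 µM and between 89.5 and 103 under Tg.

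Caspases and their regulators moved under Tg in both directions. Of the 12 genes reported here, 2 were higher and 2 lower under Tg, a share near the 31.2% over all genes, and edgeR and DESeq2 each called 0 at 30 µM AA132, with 3 of them (XIAP, BIRC3 and HTRA2) under an unadjusted p of 0.05. Higher were XIAP, an inhibitor of caspases (0.37, SE 0.080, adjusted p = 0.000486, and 0.0633 with only the vehicle and Tg libraries in the fit), and CYCS, which encodes cytochrome c (0.35, SE 0.084, adjusted p = 0.00131). Lower was the executioner caspase gene CASP6 (-0.45, SE 0.099, adjusted p = 0.000589). BIRC5, an inhibitor of apoptosis gene named here after its values were seen, was the other lower gene (-0.20, SE 0.073, adjusted p = 0.0331), a call lost without vehicle library 1 (adjusted p = 0.309) or Tg library 2 (adjusted p = 0.154). With AA132 dose, XIAP rose by 0.10 per 10-fold (adjusted p = 0.000314) and CYCS by 0.10 (adjusted p = 0.0107).

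Some genes of the cell cycle arrest and DNA damage response list rose with AA132. At 30 µM, 3 of 12 were higher and 0 lower, where 7.05% of all genes were called. CDKN1A, the cell cycle inhibitor p21, held 72.4, 59.4 and 63.6 CPM in vehicle, 79.3, 82.9 and 88.4 at 30 µM and 69.0, 71.5 and 67.5 under Tg. Its log2 fold change was 0.36 at 30 µM (SE 0.086, adjusted p = 0.00793) and 0.090 under Tg (SE 0.086, 95% interval -0.085 to 0.27). AEN, an apoptosis-enhancing nuclease, rose by 0.44 (SE 0.076, adjusted p = 0.000273), and PHLDA3 was called at 0.35 (adjusted p = 0.0413), a call that each of the 3 libraries at 30 µM, vehicle libraries 2 and 3, and Tg libraries 1 and 3 removed when left out (adjusted p = 0.0512 to 0.230). In the fit on the vehicle and 30 µM libraries alone, CDKN1A (adjusted p = 0.201) and AEN (adjusted p = 0.106) lost their calls. Under Tg 2 of 12 were called, a smaller share than the 31.2% over all genes: MDM2 (0.50) and XPC (0.18), while DESeq2 called AEN and XPC. That of MDM2 under Tg was lost without vehicle library 1, which held 15.3 CPM beside 40.7 and 36.3 (0.18, adjusted p = 0.317), and without any 1 of the Tg libraries (adjusted p = 0.0668 to 0.0899). That of XPC was lost in 22 of the alternatives. With dose 6 of 12 rose and 0 fell, where 18.7% of all genes were called. CDKN1A was the 1 gene of these lists that differed between AA132 and AA147 at 10 µM (0.42, SE 0.086, adjusted p = 0.0425), a call lost in 21 of the alternatives.

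A further list held factors reported upstream of the 10, such as ATF4 and DDIT3, and also downstream stress genes such as TRIB3. Under Tg 9 of the 11 genes reported were higher and 1 lower, against 31.2% of all genes called. At 30 µM AA132 8 of 11 were higher and 0 lower, against 7.05%. DDIT3, which encodes CHOP, averaged 7.85 ± 0.836 CPM in vehicle, 96.6 ± 6.82 under Tg and 19.8 ± 0.903 at 30 µM (SD, n = 3). It rose by 3.62 on the log2 scale under Tg (SE 0.18, adjusted p = 3.52e-17) and by 1.34 at 30 µM (SE 0.18, adjusted p = 4.55e-06). ATF4 rose by 1.08 under Tg (SE 0.071) and by 0.45 at 30 µM (SE 0.070). TRIB3, a pseudokinase gene downstream of CHOP, rose by 3.89 under Tg and 1.056 at 30 µM. CHAC1, a glutathione-degrading enzyme gene, rose by 2.87 and 1.23, and CEBPB, a C/EBP factor gene, by 2.73 and 0.73. The call of CEBPB at 30 µM was lost without vehicle library 2 (adjusted p = 0.0682) or library 1 at 30 µM (adjusted p = 0.106). The call of ATF4 at 30 µM was lost in the fit on the vehicle and 30 µM libraries alone (adjusted p = 0.120). TP73, named here after its values were seen, was the gene lower under Tg (-0.36, adjusted p = 0.0208), a call lost without vehicle library 1 (adjusted p = 0.206) or Tg library 2 (adjusted p = 0.150). Beside these values, the DDIT3 difference between 30 µM AA132 and Tg was -2.29 (SE 0.17) on the log2 scale. Of the known targets named above, PMAIP1 differed by -0.50 and TNFRSF10B by -0.19, both called. BBC3 differed by -0.15 and BCL2L11 by 0.16, neither called. A link between DDIT3 and these differences was not tested. Under AA147 edgeR called 0 of the 56 tested genes of the 7 lists reported here, with 12 under an unadjusted p of 0.05, and DESeq2 called 1, XBP1.

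Likeness of pattern was measured as the correlation of log2 CPM over the 11 condition means among 11226 genes of at least 5 CPM, a description in which all genes share the same libraries. By the fixed span of 0.8 or more between the lowest and highest condition, only BBC3 qualified. Its 3 nearest genes were GADD45A (r = 0.963), PCBP4 (r = 0.961) and ZC3H8 (r = 0.954), and without Tg the values over 10 conditions were 0.951, 0.959 and 0.940. With a span of 0.5, set after the values were seen, TNFRSF10B was nearest to HSD17B7 (r = 0.988), PCBP4 (r = 0.981) and MED10 (r = 0.980). PMAIP1 was nearest to CCDC18 (r = 0.962), MLF1 (r = 0.949) and KDELC2 (r = 0.942), and these fell to 0.926, 0.903 and 0.885 without Tg.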

How the data were processed

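Total RNA was sequenced on the DNBSEQ platform, per the labels' protocols. The authors deposited expected counts for each gene in 33 libraries, which the file headers call linear total reads and which include fractional values (3.22% of cells), so they were read as estimated counts. The build was GRCh38.p7, per the submitters' processing notes; the aligner, counter, annotation and use of strand are not given in the sources used here. The lowest deposited value, 0.009, fills 43.5% of cells and was set to 0, and values were rounded; the 10 genes held only whole counts. Entries that shared a name (98 entries, 45 names) were summed.

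Genes were tested with edgeR 4.0.16 (quasi-likelihood F-test, TMM factors, filterByExpr, all 11 conditions in 1 fit of 17793 genes, Benjamini-Hochberg adjustment over all genes, called under 0.05). Intervals are 95% and from the same fit. The scripts were tested on simulated data. Alternatives were other scaling, no filter, DESeq2 1.42.0, a stricter threshold, only the conditions compared, a library-number block and leaving out each library. Within conditions the chi-square per degree of freedom between libraries ran from 4.67 to 64.5, so none was counted as a duplicate. The members and lists were chosen with earlier results of these data known. All 10 members were named, and of each list up to 4 called genes with the largest change under Tg and at 30 µM AA132, plus DDIT3, ATF4 and CDKN1A; other list genes named were chosen after their values were seen. Some list genes are not reported here, and list counts cover those reported. Positions are from GENCODE v44 and promoter windows from RefSeq.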

Additional observations from a re-analysis of the deposited data

How the results depend on the processing

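Directions were compared across alternatives for members called in the main fit or in any alternative, and for list genes called in the main fit. None of these reversed, and the directions of other results were not compared. The counts of called members were within 1.5 times the main count except as follows. At 6 µM AA132 the main count of 1 became 2 with relative log expression factors, 2 with no filter, 3 with DESeq2, 0 at an adjusted p under 0.01 and 0 with only the conditions compared, and leaving out 1 library gave 0 to 3. At 10 µM the count of 2 became 0 under the stricter threshold and 0 with only the conditions compared, and leaving out 1 library gave 0 to 3. At 15 µM the count of 1 became 3 with no filter, 2 with DESeq2 and 0 with only the conditions compared, and leaving out 1 library gave 1 to 2. At 30 µM the count of 2 became 0 with only the conditions compared, and leaving out 1 library gave 1 to 2. For AA132 at 30 µM against Tg, leaving out 1 library gave 2 to 6, the lowest without Tg library 2. The slope count of 3 became 5 without the 30 µM dose and ran from 3 to 5 when 1 library was left out. The Tg count ran from 5 to 6 when 1 library was left out and from 4 to 6 under the other alternatives, and the counts for AA147, for the 4 lowest AA132 doses and for AA132 against AA147 stayed at 0.

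Over all genes, the fit on only the conditions compared called 3073 in place of 5551 under Tg, 25, 8, 46 and 74 in place of 190, 250, 491 and 1255 at 6, 10, 15 and 30 µM AA132, and 0 in place of 4 under AA147, 21 at 3 µM and 12 for AA132 against AA147. DESeq2 called 334, 491 and 801 at 6, 10 and 15 µM, 73 at 3 µM, 25 under AA147 and 66 for AA132 against AA147. With no filter 360 were called at 6 µM, 411 at 10 µM, 153 at 3 µM, 82 under AA147 and 98 for AA132 against AA147. The stricter threshold left 94, 125, 203 and 502 at 6, 10, 15 and 30 µM and 1875 of 3286 slopes, and without the 30 µM dose 2046 slopes were called. Leaving out 1 library gave 95 (without 6 µM library 1) to 506 (without vehicle library 1) at 6 µM, 156 (without 10 µM library 3) to 651 (without vehicle library 1) at 10 µM, 267 (without 15 µM library 3) to 920 (without vehicle library 2) at 15 µM and 700 (without 30 µM library 1) to 2017 (without vehicle library 1) at 30 µM. It gave 0 to 85 at 3 µM, 0 to 15 under AA147 and 0 to 77 for AA132 against AA147.

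Libraries with the same number did not pair: over 165 pairs the mean correlation of their deviations was 0.0031, and 13 of 33 libraries correlated best with their own number. With the library number as a replicate block, the count was 5 under Tg, 1, 2, 1 and 2 at 6, 10, 15 and 30 µM AA132, 4 for AA132 at 30 µM against Tg and 4 for the slope, where BAX was added (adjusted p = 0.0449).

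With 3 libraries a condition, standard errors of the 10 genes against vehicle ran up to 0.15 on the log2 scale, which limits what could be called.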

Other observations

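BMF, a BH3-only gene whose protein is tied to the cytoskeleton, was called lower by edgeR at 6 and 10 µM AA132. It was chosen after its values were seen. Vehicle libraries held 5.71, 5.16 and 4.74 CPM. Libraries at 6 µM held 1.79, 2.15 and 2.52 CPM, and at 10 µM 3.03, 2.56 and 2.81, all below the vehicle range. At 30 µM they held 3.25, 3.59 and 2.94 CPM, also below the vehicle range. BMF fell at 6 µM with a log2 fold change of -1.27 (SE 0.22, adjusted p = 0.00107) and at 10 µM with -0.89 (SE 0.22, adjusted p = 0.0283). By edgeR it was not called at 15 µM or at 30 µM (-0.67 at 30 µM, SE 0.22, adjusted p = 0.0530), while DESeq2 called it at both. The call at 10 µM was lost without library 2 (adjusted p = 0.110) or library 3 (adjusted p = 0.0892) of that dose. Over the 8 doses it fell by 0.31 per 10-fold of dose on the log2 scale (SE 0.074, adjusted p = 0.00273). Under Tg it held 4.75, 5.10 and 3.68 CPM (-0.21, SE 0.21, adjusted p = 0.503).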
